A study of Mus musculus with 12 samples.

Results

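Processed pseudogenes of ribosomal protein genes were examined in mouse bone marrow mesenchymal stem cells (MSCs). A gene was taken as a member when its name in the expression table began with Rpl or Rps and carried "-ps", alone or followed by a number. This rule gave 319 of the 55401 genes in the table. The question was whether changes such as that of Rpl30-ps10, a pseudogene of Rpl30 chosen by its measured difference between TGF-β1/M-MDSC sup and TGF-β1, were shared by other members and by the parent genes.

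A processed pseudogene arises when a messenger RNA is copied back into DNA and inserted elsewhere in the genome, without introns and usually without the promoter of its parent. Ribosomal protein genes encode the protein part of the ribosome, are expressed strongly in nearly all cells and have left many such copies in mammalian genomes. A young copy is nearly identical to the messenger RNA of its parent, so that a sequencing read from the parent can also match the copy.

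The MSCs were bought C57BL/6 mouse bone marrow cells, and 12 libraries were made from poly(A) RNA, 3 in each of 4 groups. The Control group was untreated, and the TGF-β1 group received TGF-β1 at 5 ng/mL. The TGF-β1/G-MDSC sup and TGF-β1/M-MDSC sup groups received TGF-β1 at the same dose together with the culture supernatant of granulocytic or monocytic myeloid-derived suppressor cells. These suppressor cells had been induced from bone marrow with GM-CSF and IL-6 and sorted by CD11b, Ly6G and Ly6C. The labels do not say whether the 3 libraries of a group came from separate cultures, so p-values measure the spread between these libraries, which may be technical.

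The libraries held 73977669 to 84565450 counts. Of 9 MSC markers, 8 passed the filter on low values described below; Itgb1 ranged from 247 to 394 FPKM (read fragments scaled to transcript length and library size) and Cd44 from 38.5 to 65.3 FPKM, while Eng stayed below 1 at 0.635 to 0.968 FPKM. Ly6a, which encodes the marker Sca-1, was 241 to 251 FPKM in Control, 13 to 18.8 in TGF-β1, 63.3 to 69.2 in TGF-β1/G-MDSC sup and 82.6 to 103 in TGF-β1/M-MDSC sup. Itgb1, Cd44, Nt5e and Pdgfrb were higher in all libraries with TGF-β1 than in Control, with 247 to 263 FPKM of Itgb1 in Control and 370 to 394 in the others. Thy1, Vcam1 and Pdgfra were, like Ly6a, lower in all libraries with TGF-β1 than in Control, with 13.2 to 15.5 FPKM of Pdgfra in Control and 4.58 to 6.93 in the others. The summed level of the MSC list was 585 to 602 FPKM in Control, 502 to 515 in TGF-β1, 535 to 560 in TGF-β1/G-MDSC sup and 556 to 587 in TGF-β1/M-MDSC sup. Of the 4 genes that MSCs should lack, Cd34 was present at 60.1 to 66.0 FPKM in Control and at 10.9 to 17.4 in all libraries with TGF-β1. Pecam1 was 0.0674 to 0.0922 FPKM in Control and 0.0989 to 0.218 in the others, and Kit and Ptprc stayed at or under 0.0157 FPKM. Of 12 myeloid markers, 5 passed, Mpo and Elane had 0 counts in all libraries, and the summed level was 26.9 to 27.9 FPKM in Control, 13.6 to 15.8 in TGF-β1, 25.8 to 29.4 in TGF-β1/G-MDSC sup and 20.5 to 25.9 in TGF-β1/M-MDSC sup. Most of this sum was Cd14, at 12.4 to 23.6 FPKM. Lyz2, a lysozyme of myeloid cells, was at most 0.191 FPKM in Control and TGF-β1 and 0.651 to 2.29 in the supernatant groups, whereas Ly6g was 1.74 to 1.89 FPKM in Control and at most 0.199 in the other groups, and Ly6c2 1.59 to 1.83 and at most 0.308. Genes of other organs were seen in the supernatant groups. The summed FPKM of 8 kidney genes was at most 0.141 in the Control and TGF-β1 libraries, 43.2 to 57.2 in TGF-β1/G-MDSC sup, and 15.6, 12.2 and 78.6 in TGF-β1/M-MDSC sup replicates 1, 2 and 3. The summed FPKM of 4 liver genes was at the table's value for 0 counts in the Control and TGF-β1 libraries, 49.9 to 55.2 in TGF-β1/G-MDSC sup, and 0.0765, 0.176 and 47.0 in TGF-β1/M-MDSC sup. The part of this RNA in the results below was not tested.

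The members were copies of 64 parent genes on 20 chromosomes, of which 63 had a row of their own. Rpl31 and Rps12 had the most copies, 24 each, and 37 members were on the X chromosome. The table listed 302 members as processed pseudogenes and the other 17 under further types, with a protein-coding transcript for 7 of them. Another gene row overlapped 99 members. No read was counted for 94 members in any library, and 78 others had counts but did not pass the filter, which required at least 1 FPKM in at least 3 of 12 libraries. The 147 members that passed ranged in mean level from 0.622 to 1565 FPKM with a median of 12.1, and 31 of them had at least 100 FPKM.

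Little separates the rows of the Rpl30 copies on which the results turn. In the GENCODE M21 transcripts of GRCm38, Rpl30-ps10 on the X chromosome differs from the coding sequence of Rpl30, which lies on chromosome 15, at 3 of 345 bases (99.13% identity). Gm12191 on chromosome 11, a copy without a ribosomal protein name and therefore no member, differs at 1 base (99.71%). Rpl30-ps1 on chromosome 6 and Rpl30-ps8 on chromosome 12 each differ at 3 bases, and Rpl30-ps9 on the X chromosome differs at 2 of 342 aligned bases. Of the windows of 150 bases in Rpl30-ps10, the read length used, 89.9% occur unchanged in a transcript of another gene. The share was 96.4% for Rpl30-ps9, 39.8% for Rpl30-ps8 and 13.1% for Rpl30-ps1.

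Rpl30-ps10 was low in all TGF-β1 libraries and high in all others. Its counts were 6145, 4560 and 4923 in Control, 214, 311 and 289 in TGF-β1, 9905, 11064 and 10136 in TGF-β1/G-MDSC sup, and 4134, 8230 and 7309 in TGF-β1/M-MDSC sup. In such bulk libraries, fewer cells that carry a transcript and less of it per cell cannot be told apart. The TGF-β1 group overlapped with none of the other groups, and the TGF-β1/M-MDSC sup group overlapped with Control. In mean level it was 169 ± 34.4 FPKM (SD, n = 3) in Control, 8.67 ± 1.58 in TGF-β1, 330.1 ± 30.4 in TGF-β1/G-MDSC sup and 224 ± 73.9 in TGF-β1/M-MDSC sup. The fitted level was 18.7-fold lower in TGF-β1 than in Control, 25.5-fold higher in TGF-β1/M-MDSC sup than in TGF-β1 and 37.4-fold higher in TGF-β1/G-MDSC sup than in TGF-β1. These 3 folds use the libraries by which the gene was singled out or share them, and they are given as a description without a test.

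One comparison was between groups that were not part of the contrast that singled out the gene. The edgeR fit nevertheless took its estimate of spread from all 12 libraries, including those of that contrast. Rpl30-ps10 was higher in TGF-β1/G-MDSC sup than in Control by 1.00 on the log2 scale (SE 0.24), with an adjusted p = 0.00721 in edgeR's quasi-likelihood test over all genes. All 3 libraries of the first group lay above the 3 Control libraries. A two-sided exact permutation test of log2(FPKM + 1) gave p = 0.1, which is the smallest that 3 against 3 libraries allow. The kidney and liver genes given above also separate these groups, so their part cannot be told apart here and was not tested.

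The parent did not follow its pseudogene. Rpl30, which encodes a protein of the large ribosomal subunit, had 7147, 9872 and 7008 counts in Control, 11495, 12342 and 13505 in TGF-β1, 10293, 10085 and 7319 in TGF-β1/G-MDSC sup, and 13934, 11887 and 14514 in TGF-β1/M-MDSC sup. The TGF-β1 and TGF-β1/M-MDSC sup libraries were all above Control. It rose in TGF-β1 against Control by 0.69 on the log2 scale (SE 0.14, adjusted p = 0.00361 in edgeR), the comparison in which Rpl30-ps10 had its lowest levels. It differed by 0.19 between TGF-β1/M-MDSC sup and TGF-β1 (SE 0.14, adjusted p = 0.572 in edgeR).

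Reads were also assigned to 15 other rows with Rpl30-like sequence. Taking every row with at least 90% identity over at least 80% of the Rpl30 coding sequence gave 17 rows, whose summed counts were 50873, 61154 and 56013 in Control, 56262, 58453 and 61017 in TGF-β1, 64866, 62533 and 56404 in TGF-β1/G-MDSC sup, and 56834, 55066 and 59735 in TGF-β1/M-MDSC sup. In CPM (counts scaled to the library total), the highest of the 12 sums was 1.19 times the lowest. The sum was 665 to 733 CPM in Control, 699 to 760 in TGF-β1, 699 to 794 in TGF-β1/G-MDSC sup and 744 to 768 in TGF-β1/M-MDSC sup, so that TGF-β1/M-MDSC sup lay above Control and the other pairs of groups overlapped. Within this sum, Gm12191 took a mean of 72.2% in Control, 75.3% in TGF-β1, 64.2% in TGF-β1/G-MDSC sup and 61.0% in TGF-β1/M-MDSC sup. Rpl30-ps10 took 9.44%, 0.462%, 17.0% and 11.5% in the same order, and Rpl30 took 14.2%, 21.2%, 15.0% and 23.5%. Summed to 1 row before the fit, a step chosen after seeing the data, the Rpl30 copies differed by 0.04 on the log2 scale between TGF-β1/M-MDSC sup and TGF-β1 (SE 0.05), against 4.67 (SE 0.28) for Rpl30-ps10 alone. Between TGF-β1/G-MDSC sup and Control the sum differed by 0.14 (SE 0.05, adjusted p = 0.0607 in edgeR), and so did not pass. Rpl30-ps10 was a small part of the sum, which cannot show whether the rise of that row was lost. Between TGF-β1/M-MDSC sup and Control the sum differed by 0.16 (SE 0.05, adjusted p = 0.0415 in edgeR), which passed. The TGF-β1/M-MDSC sup libraries belong to the contrast by which Rpl30-ps10 was chosen.

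**Figure D1:**
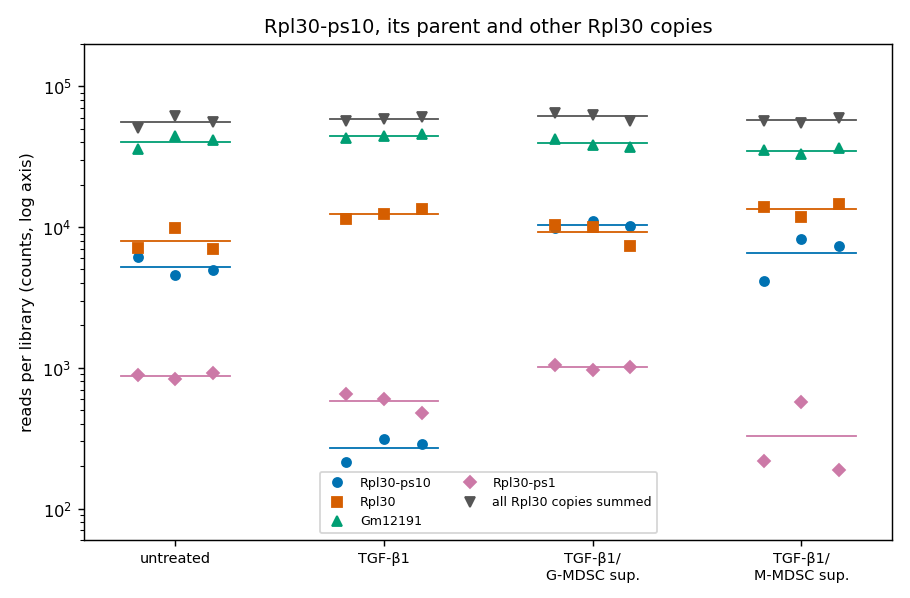
Counts per library (log axis) of Rpl30-ps10, its parent Rpl30, Gm12191, Rpl30-ps1 and the sum of all 17 Rpl30 copies, in 4 groups of 3 libraries; each point is a library and each line a group mean. Rpl30-ps10 falls to between 214 and 311 counts in TGF-β1, while the sum stays between 50873 and 64866 counts in all libraries.

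The other Rpl30 pseudogenes moved less than Rpl30-ps10 or followed single libraries. There were 9 Rpl30 pseudogenes, of which 6 passed the filter. Rpl30-ps5 had 0 counts, and Rpl30-ps2 and Rpl30-ps6 had 9 and 10 counts over all libraries. Rpl30-ps1 had 893, 827 and 920 counts in Control, 648, 604 and 481 in TGF-β1, 1055, 962 and 1019 in TGF-β1/G-MDSC sup and 218, 570 and 189 in TGF-β1/M-MDSC sup. In TGF-β1 it was below Control and TGF-β1/G-MDSC sup without overlap, the directions of Rpl30-ps10, by -0.56 (SE 0.34) and 0.77 (SE 0.34) on the log2 scale. Neither passed in edgeR over all groups (adjusted p = 0.246 and 0.282), and both were called in edgeR with the compared groups alone. Unlike Rpl30-ps10, it had its lowest counts in TGF-β1/M-MDSC sup. Its log2 difference between TGF-β1/M-MDSC sup and TGF-β1/G-MDSC sup was -1.51 (SE 0.35, adjusted p = 0.211 in edgeR), and without TGF-β1/M-MDSC sup replicate 2 it was -2.21 and passed.

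Rpl30-ps9 was set by single libraries. It had 2478 counts in TGF-β1/M-MDSC sup replicate 1, 702 in Control replicate 3 and 524 in TGF-β1/G-MDSC sup replicate 2, against 68 to 148 in the other 9 libraries. Its log2 difference between TGF-β1/M-MDSC sup and TGF-β1 was 2.99 (SE 1.38, adjusted p = 0.311 in edgeR), and it was -0.13 without TGF-β1/M-MDSC sup replicate 1. Rpl30-ps8 had 609 counts in Control replicate 2 and 260 in TGF-β1/G-MDSC sup replicate 2, against 58 to 104 elsewhere. Rpl30-ps11 stayed between 194 and 307 counts and Rpl30-ps3 between 153 and 243.

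The rows beside Rpl30-ps10 on the X chromosome were examined as well. Gm14723, 75816 bp upstream, had 0 counts in all libraries. Vma21, which encodes an assembly factor of the vacuolar proton pump and begins 11889 bp downstream, had 4007, 3787 and 1514 counts in Control, 1426, 1627 and 1423 in TGF-β1, 4462, 4054 and 1673 in TGF-β1/G-MDSC sup, and 3810, 1564 and 4117 in TGF-β1/M-MDSC sup. It fell into a higher and a lower set of libraries inside 3 of the 4 groups, whereas Rpl30-ps10 was high in all 9 libraries of those groups.

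Over the 12 libraries, the 10 tested genes whose log2(FPKM + 1) followed Rpl30-ps10 most closely were Ifi27, Tiparp, Gbp9, Fer, Ifi202b, Ifi203, Ifi204, Il13ra1, Gbp2 and Psme2, with Pearson r from 0.944 to 0.955. None was a ribosomal protein gene or pseudogene. The libraries fall into groups, and the r values describe the likeness only. Ifi27 had a mean of 68.4 FPKM in Control, 40.6 in TGF-β1, 93.3 in TGF-β1/G-MDSC sup and 80.5 in TGF-β1/M-MDSC sup. Among those with larger folds, the fitted level of Gbp9, an interferon-induced GTPase, was 7.10-fold lower in TGF-β1 than in Control, 9.73-fold higher in TGF-β1/M-MDSC sup than in TGF-β1 and 7.4-fold higher in TGF-β1/G-MDSC sup than in TGF-β1. In the same order Gbp2 had 4.21-fold, 6.99-fold and 5.13-fold, and Rpl30-ps10 had 18.7-fold, 25.5-fold and 37.4-fold.

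Few other members passed the test with TGF-β1. The median size of the log2 fold change in TGF-β1 against Control was 0.169 over the members and 0.197 over all genes tested. Rpl30-ps10 is left out of the counts of members in the comparisons with TGF-β1, since those libraries were used to choose it. Of the 146 other members that passed the filter, 1 had an adjusted p under 0.05 in edgeR in TGF-β1 against Control, against 34% of all 12016 genes tested. This was Rpl7-ps9. Rpl7-ps9 (chrX:36668217-36669013, +) had 1132, 1279 and 1245 counts in Control and 1449, 1259 and 1512 in TGF-β1, and the 2 groups overlapped. It rose by 0.25 on the log2 scale (SE 0.09, adjusted p = 0.0446 in edgeR), while its parent Rpl7, a protein of the large subunit, differed by 0.12 (SE 0.04, adjusted p = 0.056 in edgeR). The sum of all 9 Rpl7 copies rose by 0.13 (SE 0.04, adjusted p = 0.0454 in edgeR), which passed. The call of Rpl7-ps9 was lost without any of the 3 Control libraries or without TGF-β1 replicate 1 or 3, with adjusted p from 0.0801 to 0.178. Without Control replicate 1 or TGF-β1 replicate 3, 0 of the other members were called by edgeR, and without Control replicate 2 there were 3. Of the other members, 7 had an unadjusted p under 0.05, against 42.3% of all genes, and DESeq2 called 4, against 36.4%.

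Between TGF-β1/M-MDSC sup and TGF-β1, 1 of the 146 other members was called, against 4.78% of all genes. This was Rpl19-ps1 (chr1:85012114-85012704, +), a copy of the large subunit gene Rpl19 with 99.15% identity. Rpl19-ps1 had 345, 309 and 402 counts in TGF-β1 and 678, 787 and 533 in TGF-β1/M-MDSC sup, with no overlap, beside 408, 488 and 411 in Control and 414, 338 and 550 in TGF-β1/G-MDSC sup. It rose by 1.00 on the log2 scale (SE 0.20, adjusted p = 0.0177 in edgeR). Rpl19 differed by 0.02 (SE 0.05, adjusted p = 0.891 in edgeR) and the sum of all 15 Rpl19 copies by 0.02 (SE 0.05). The call was lost without TGF-β1 replicate 1 or 2. It was also lost without TGF-β1/M-MDSC sup replicate 1 or 2, with adjusted p from 0.0551 to 0.0809 in edgeR over these fits. It stayed without TGF-β1/M-MDSC sup replicate 3 (adjusted p = 0.01 in edgeR). All libraries of that group held the kidney genes given above, and their part was not tested. Without TGF-β1 replicate 1 or 2 edgeR called 0 of the other members, and 3 without TGF-β1/M-MDSC sup replicate 1. At an unadjusted p under 0.05 there were 8, against 16.7% of all genes, and DESeq2 called 5, against 6.91%.

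In TGF-β1/G-MDSC sup against TGF-β1, edgeR called 0 of the 146 other members, against 5.56% of all genes, with 13 at an unadjusted p under 0.05, against 17.2%, and 4 by DESeq2, against 8.24%. The count was 1 without TGF-β1 replicate 1 and 3 without TGF-β1/G-MDSC sup replicate 1. Between the 2 supernatant groups, edgeR called 0 of 147 members, against 0.125% of all genes. There, 15 members (10.2%) had an unadjusted p under 0.05 in edgeR, against 6.33% of all genes. DESeq2 called 4 there, namely Rpl15-ps6, Rpl30-ps1, Rps18-ps4 and Rps6-ps3, against 1.01% of all genes. Rps18-ps4 had counts in 1 library of these 2 groups and passed the filter through 3 libraries alone, and DESeq2 also counted it in TGF-β1 against Control and in TGF-β1/G-MDSC sup against TGF-β1. Leaving out TGF-β1/M-MDSC sup replicate 2 gave 1 call by edgeR, Rpl30-ps1. By a rule of fold above 2 or below 0.5 with an unadjusted p under 0.05, 2 of the other members were called in TGF-β1 against Control, against 6.74% of all genes. This rule called 3 in TGF-β1/M-MDSC sup against TGF-β1, against 2.18% of all genes. It also called 3 in TGF-β1/G-MDSC sup against TGF-β1, against 2.17% of all genes. Between the supernatant groups the rule called 6 of 147 members (4.08%), against 0.549% of all genes.

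Rpl10-ps1 and Rpl36a-ps3, copies of large subunit genes, had the directions of Rpl30-ps10 in the comparisons with TGF-β1, with a wide spread between libraries, and they were singled out after their values were seen. Rpl10-ps1 had 3029, 3404 and 455 counts in Control, 398, 442 and 560 in TGF-β1, 2903, 1969 and 2118 in TGF-β1/G-MDSC sup, and 391, 7331 and 7812 in TGF-β1/M-MDSC sup. A low library thus stood in Control and in TGF-β1/M-MDSC sup, and TGF-β1 was separate from TGF-β1/G-MDSC sup alone. Its log2 difference was -2.25 (SE 0.92, adjusted p = 0.0855 in edgeR) in TGF-β1 against Control, 3.54 (SE 0.96, adjusted p = 0.0721) in TGF-β1/M-MDSC sup against TGF-β1 and 2.28 (SE 0.92, adjusted p = 0.224) in TGF-β1/G-MDSC sup against TGF-β1. The fold rule called it in all 3 of these comparisons, and DESeq2 called it in the first 2. It was called in edgeR in the first without Control replicate 3 and in the second without TGF-β1/M-MDSC sup replicate 1. Rpl36a-ps3 had 714, 157 and 598 counts in Control, 138, 144 and 105 in TGF-β1, 148, 875 and 1086 in TGF-β1/G-MDSC sup, and 137, 380 and 350 in TGF-β1/M-MDSC sup. It differed by -1.90 (SE 0.74, adjusted p = 0.0734 in edgeR) in TGF-β1 against Control and by 2.43 (SE 0.75, adjusted p = 0.103) in TGF-β1/G-MDSC sup against TGF-β1, and both were called by the fold rule and by DESeq2. In edgeR they were called without Control replicate 2 and without TGF-β1/G-MDSC sup replicate 1, respectively. With the compared groups alone, edgeR also called Rpl36a-ps3 in TGF-β1 against Control and Rpl10-ps1 in TGF-β1/G-MDSC sup against TGF-β1.

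The comparisons of the supernatant groups with Control were counted for all members after seeing the data, and they share the Control libraries. Of the 147 members, 8 were called in TGF-β1/M-MDSC sup against Control, against 35.2% of all genes. Of these, 5 were higher and 3 lower, against 16.4% and 18.9% of all genes. The largest differences were -2.68 for Rpl35a-ps2 (SE 0.88, adjusted p = 0.0369 in edgeR) and -1.30 for Rpl30-ps1 (SE 0.35, adjusted p = 0.0144 in edgeR). Rpl35a-ps2 had 3286, 4056 and 1711 counts in Control and 403, 491 and 401 in TGF-β1/M-MDSC sup, without overlap. In TGF-β1, however, it had 3141, 493 and 445 counts, and in TGF-β1/G-MDSC sup 4161, 513 and 4321, so that the same high and low levels occurred inside both groups. Without a filter on low values, 3 members were called. The number called was 4 without Control replicate 1, 3 without TGF-β1/M-MDSC sup replicate 2 and 4 without replicate 3 of that group.

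Another 8 calls were made in TGF-β1/G-MDSC sup against Control, against 34.8% of all genes. Of these, 6 were higher and 2 lower, against 16.4% and 18.4% of all genes. Rps6-ps3 had 809, 1190 and 551 counts in Control and 229, 215 and 328 in TGF-β1/G-MDSC sup, a log2 difference of -1.70 (SE 0.52, adjusted p = 0.0271 in edgeR). Rpl15-ps6 had 367, 472 and 819 counts against 2562, 797 and 2005, a log2 difference of 1.69 (SE 0.46, adjusted p = 0.0144 in edgeR), and its groups overlapped. Without a filter on low values, 3 members were called in this comparison too. The number called was 4 without Control replicate 1 or 3, and 5 without Control replicate 2 or TGF-β1/G-MDSC sup replicate 2. Rpl30-ps10 was called in each of these.

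Few of the parent genes were called. Of 62 parents tested, 3 (4.84%) were called in TGF-β1 against Control, against 34% of all genes, namely Rpl30, Rpl35 (0.21, SE 0.06) and Rpl10a, which fell by 0.49 on the log2 scale (SE 0.15). For TGF-β1/M-MDSC sup against TGF-β1, edgeR called 0 parents, against 4.78% of all genes, with 2 at an unadjusted p under 0.05, against 16.7%, and 1 by DESeq2, against 6.91%. Rpl26 (0.41, SE 0.09, adjusted p = 0.0218 in edgeR) was the single parent (1.61%) called in TGF-β1/G-MDSC sup against TGF-β1, against 5.56% of all genes. In that comparison 0 parents were called without TGF-β1 replicate 1 or 2, and 0 without TGF-β1/G-MDSC sup replicate 1 or 2. Between the supernatant groups, edgeR called 0 parents, against 0.125% of all genes, with 1 at an unadjusted p under 0.05, against 6.33%, and 1 by DESeq2, against 1.01%. No parent differed by more than 2-fold in these comparisons. The fold rule called 0 of 62 parents in each, against 6.74%, 2.18%, 2.17% and 0.549% of all genes in the order given. Of 87 protein-coding genes listed for cytosolic ribosomal proteins, 82 were tested, and 4 were higher and 1 lower in TGF-β1 against Control, where 16.1% of all genes were higher and 17.9% lower.

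Over 143 pairs in which both were tested, the log2 fold changes of pseudogene and parent were set side by side. Spearman's rho was -0.026 in TGF-β1 against Control, 0.01 in TGF-β1/M-MDSC sup against TGF-β1, -0.171 in TGF-β1/G-MDSC sup against TGF-β1 and 0.002 in TGF-β1/M-MDSC sup against TGF-β1/G-MDSC sup. Pearson r was -0.115, 0.035, -0.157 and -0.043 in the same order, and it depended on single pairs. Without Rps18-ps4, whose fitted changes are set by groups with 0 counts, r was -0.325, 0.036, -0.271 and -0.037 over 142 pairs, and without Rpl30-ps10 as well it was -0.167, -0.053, -0.103 and -0.009 over 141 pairs. The pairs share libraries and often a parent, and the values are a description. The pseudogene had the sign of its parent in 81, 76, 62 and 75 of the 143 pairs in the same order. The median size of the log2 fold change was 0.157 to 0.193 over the members in these 4 comparisons and 0.0255 to 0.0663 over the sums of all copies of each parent, against 0.071 to 0.197 over all genes tested.

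**Figure D2:**
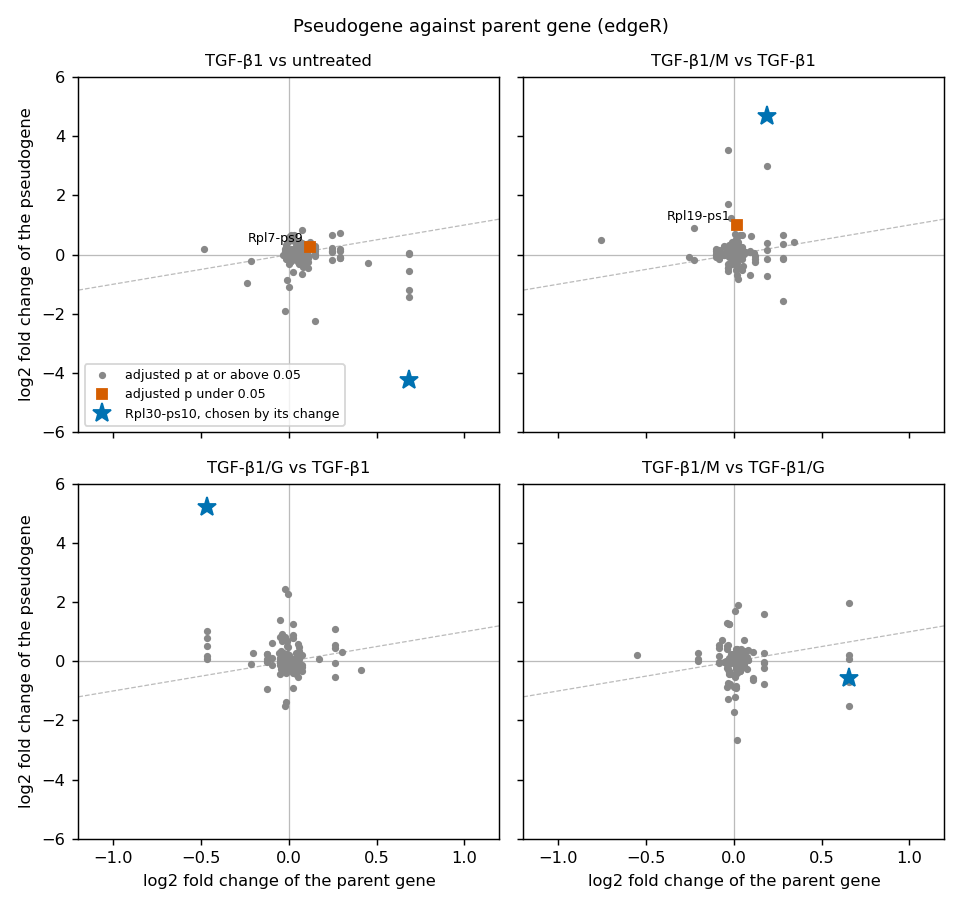
Log2 fold change (edgeR) of each pseudogene on the y axis against that of its parent gene on the x axis, in 4 comparisons, with a dashed line where both would be equal; squares have an adjusted p under 0.05, the star is Rpl30-ps10, and Rps18-ps4 lies off the scale and is left out. Rpl30-ps10 stands at -4.22, 4.67 and 5.22 in the comparisons with TGF-β1, while its parent stays between -0.47 and 0.69.

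The members varied more between libraries of a group than their parents did. The biological coefficient of variation that edgeR estimated had a median of 19.1% over the 147 members, 6.94% over the parents, 20.7% over 1076 other processed pseudogenes and 10.5% over all genes tested. CPM of the highest and lowest library of a group, with lower values raised to 3 counts, differed at least 5-fold in some group for 15 members (10.2%). This share was 8.92% for other processed pseudogenes and 2.85% for all genes tested, and among parents it held for Rpl29 alone (1.61%). The share among members was near that among other processed pseudogenes.

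These 15 members jumped between libraries of a group, and the sum of all copies of the parent moved by at most 1.43-fold there. A sum moves little with a member that is a small part of it, whatever that member does. Rpl30-ps9, for one, was at most 4.36% of its sum in TGF-β1/M-MDSC sup, where it jumped. The Rps18 pair was the most extreme. Rps18-ps6 (chr13:97760072-97760632, -), a copy of a small subunit gene and the member with the highest mean level (1565 FPKM), had 80497, 103397 and 86062 counts in Control, 67010, 31935 and 94490 in TGF-β1, 95723, 94705 and 88937 in TGF-β1/G-MDSC sup, and 82199, 21594 and 90070 in TGF-β1/M-MDSC sup. Rps18-ps4 (chr13:97751112-97760965, +), listed as a long non-coding RNA, covers it on the opposite strand. Rps18-ps4 had 18208 and 57483 counts in TGF-β1 replicates 1 and 2, 64314 in TGF-β1/M-MDSC sup replicate 2 and 0 in the other 9 libraries. The libraries in which it had counts were the 3 in which Rps18-ps6 was low. The sources used here do not say whether the counting used strand, and without it reads of the 2 rows cannot be told apart. The sum of both rows was 80497 to 103397 counts, and in CPM its highest value was 1.18 times its lowest.

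Rps2-ps10 and Rps2-ps13, copies of a small subunit gene on different chromosomes, had mean levels of 1128 and 1413 FPKM. Rps2-ps10 had 853 counts in TGF-β1/M-MDSC sup replicate 2 and 82400 to 144455 in the other 11 libraries. Rps2-ps13 had 109817 counts in that library, within its range of 56600 to 151164, and the sum of 44 Rps2 copies was 190471 there against 270742 to 341562 elsewhere. The sum of the copies was thus lower in that library as well. Among the other 11 libraries, Rps2-ps13 had its 3 lowest counts in Control replicate 1 (86170), TGF-β1 replicate 1 (56600) and TGF-β1/G-MDSC sup replicate 3 (59604), where Rps2-ps10 had its 3 highest counts, 144455, 133888 and 134622.

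Rpl15-ps3, with a coding sequence identical to that of Rpl15, had 202 to 7261 counts and differed 29.9-fold within TGF-β1/M-MDSC sup, where the sum of 22 Rpl15 copies differed 1.01-fold. Rpl10-ps1, also identical to its parent and given above, differed 19.2-fold within TGF-β1/M-MDSC sup, while the sum of 12 Rpl10 copies differed 1.06-fold in that group. Rpl35a-ps3 had 69 counts in TGF-β1 replicate 3 and 3919 to 5846 in the other 11 libraries, and the sum of 22 Rpl35a copies differed 1.1-fold within TGF-β1. For the 15 members, the sum of all copies, with the member added where it was not among them, differed 1.01-fold to 1.43-fold within the group in question, the largest being that of Rps2.

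**Figure D3:**
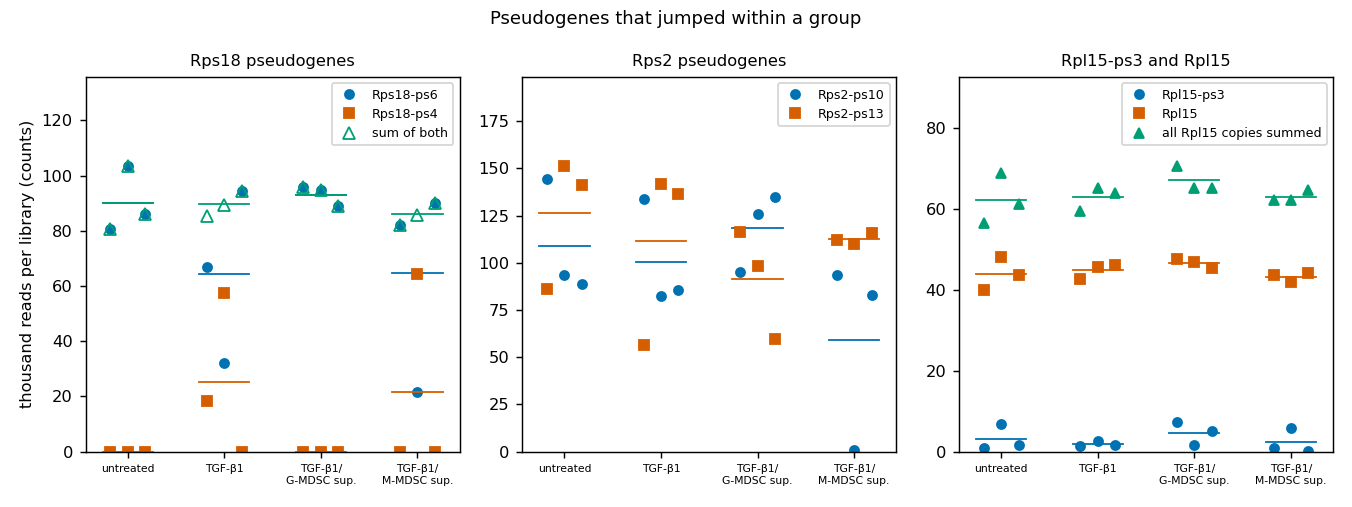
Counts per library, in units of 1000, for Rps18-ps6, Rps18-ps4 and their sum (left), Rps2-ps10 and Rps2-ps13 (middle), and Rpl15-ps3, Rpl15 and the sum of all Rpl15 copies (right); points are libraries and lines group means. Rps18-ps4 has counts in 3 libraries only, where Rps18-ps6 is low, and Rps2-ps10 falls to 853 counts in 1 library.

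The other members with the highest levels were Rpl7a-ps11 at a mean of 714 FPKM and Rps12-ps3 at 711 FPKM. All windows of 150 bases of either occur in a transcript of another gene, so that a single read within either cannot be placed by its sequence alone. Rpl7a-ps11 had 31660 to 78201 counts and Rps12-ps3 18659 to 32030. Neither was called in any of the 4 comparisons. Rps12-ps3 lies on the opposite strand within Pdzd8, whose row had a mean of 8436 counts.

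The level of a member went with its likeness to its parent. An alignment to the parent's coding sequence was found for 312 members. Of those with up to 90% identity, 1 of 67 passed the filter, followed by 8 of 68 above 90 and up to 95%, 34 of 74 above 95 and up to 98%, 41 of 42 above 98 and up to 99%, and 61 of 61 above 99%. The single member of the lowest class was Rpl36a-ps3. The median level of all members was 0.673 FPKM in the class up to 98%, 8.18 in the class up to 99% and 67.2 in the class above 99%. In that last class a median of 68.5% of the windows of 150 bases were found in other genes, against 15.1% in the passing members of the class up to 99% and 1.0% in those of the class up to 98%. This is a description across members, whose filter and level come from the same counts.

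**Figure D4:**
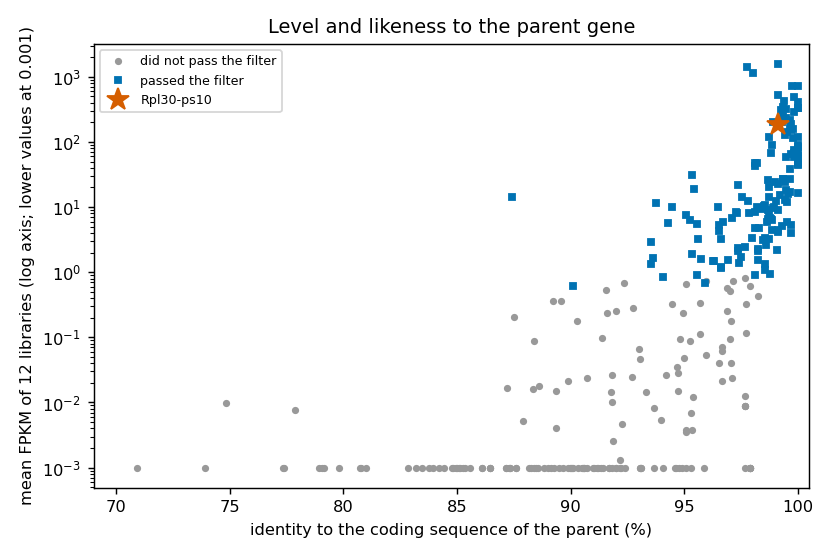
Mean FPKM of 12 libraries (log axis; values below 0.001 drawn there) against identity to the parent's coding sequence, for the 312 members with an alignment; squares passed the filter, circles did not, and the star is Rpl30-ps10. All 61 members above 99% identity passed, against 1 of 67 at or below 90%.

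Together the members took 0.916 to 1.05% of the counts of a library, and their 63 parents took 3.68 to 4.08%. The mean share of the members was 1.02 ± 0.0106% (SD, n = 3) in Control, 0.976 ± 0.0674% in TGF-β1, 0.991 ± 0.0526% in TGF-β1/G-MDSC sup and 0.972 ± 0.0425% in TGF-β1/M-MDSC sup. All 3 TGF-β1/M-MDSC sup libraries, at 0.924 to 1.003%, lay below the 3 Control libraries, at 1.012 to 1.032%, and the ranges of the other pairs of groups overlapped. The difference was not tested.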

How the data were processed

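Poly(A) RNA of 12 libraries was sequenced as stranded paired reads of 150 bases. The authors checked read quality with fastp, aligned to GRCm38 with HISAT2 and assembled transcripts with StringTie. The submitters' processing notes list cutadapt 1.9, HISAT2 2.0.4 and StringTie 1.3.4d. They deposited 1 table with raw counts per gene and their FPKM, which stands at 0.0001 where no read was counted. The tool that counted the reads, and how reads matching several places were treated, are not given in the sources used here. The table also holds gene annotation columns, and the authors' comparisons were not used.

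Counts as deposited were tested with edgeR 4.0.16 in R 4.3.3 (quasi-likelihood F test, two-sided). The filter kept 12016 genes that reached 1 FPKM in 3 or more libraries. Library sizes were scaled by TMM, all 4 groups entered a single model, and a gene was called at a Benjamini-Hochberg adjusted p under 0.05, with the adjustment made across the 12016 genes. The fit was also run on simulated counts with known changes, and the outcome is not reported here. A parent is the gene named before "-ps". Its longest GENCODE M21 coding sequence was aligned to all annotated transcripts on the plus strand with blastn 2.17.0, and rows with at least 90% identity over at least 80% of it were summed as copies. Coordinates are those of the table; 316 of 319 members had the same span in GENCODE M21. Libraries of a group differed by 62.7 to 86.5 times the counting variance, so no library looked like a duplicate of another.

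Genes were named by a rule: Rpl30-ps10 and the other Rpl30 pseudogenes, the 5 members with the highest mean FPKM, members called in any of the 4 comparisons, their parents, overlapping rows, the neighbours of Rpl30-ps10 and the 10 genes most like it over the libraries. Members that jumped at least 5-fold within a group, and those called against Control, were named after their values were seen. The members and lists were chosen with earlier results of these data known. Alternatives covered scaling, filter, DESeq2 1.42.0, limma 3.58.1 on log2(FPKM + 1) and log2(FPKM + 0.1), counts divided by 4, the compared groups alone, a replicate block, the rule of a fold above 2 or below 0.5 with an unadjusted p under 0.05, and leaving out each library. Summing copies and counting the members in 2 further comparisons with Control were added after seeing the data. The sequences of the Rpl30 copies are not reported here.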

Additional observations from a re-analysis of the deposited data

How the results depend on the processing

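The counts of members here include Rpl30-ps10, whose choice on these libraries fixes its place in the first 3 comparisons. The number of members called in TGF-β1 against Control, 2 in the reported fit, was 1 with the filterByExpr filter, without a filter, with limma at either pseudocount and with the replicate block, 4 with the compared groups alone, 5 with DESeq2 and 3 by the fold rule. For TGF-β1/M-MDSC sup against TGF-β1 it was 2, and it became 6 with DESeq2 and 4 by the fold rule. In TGF-β1/G-MDSC sup against TGF-β1 it was 1, and it became 5 with DESeq2, 4 by the fold rule, 2 with limma at either pseudocount and 3 with the compared groups alone. Between the supernatant groups it was 0, and it became 4 with DESeq2 and 6 by the fold rule. Leaving out 1 library gave 1 to 4 members in each of the first 3 comparisons and 0 to 1 in the last. In TGF-β1/M-MDSC sup and TGF-β1/G-MDSC sup against Control, 8 members each, it was 3 in both without a filter, 5 in both with the compared groups alone, and 12 and 10 with DESeq2, with ranges of 3 to 10 and 4 to 11 when 1 library was left out. The parents called in TGF-β1 against Control were 3, and 5 with DESeq2 or the replicate block, 4 with the compared groups alone, 2 without a filter and 0 by the fold rule, with a range of 1 to 6 when 1 library was left out. For TGF-β1/M-MDSC sup against TGF-β1 the parents called were 0, and 1 with DESeq2, limma at either pseudocount or the replicate block, with a range of 0 to 1. In TGF-β1/G-MDSC sup against TGF-β1 they were 1, and 2 with DESeq2, with a range of 0 to 1, and in TGF-β1/M-MDSC sup against TGF-β1/G-MDSC sup they were 0, and 1 with DESeq2. The cause of these changes was not tested.

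The log2 difference of Rpl30-ps10 between TGF-β1/G-MDSC sup and Control, 1.00, kept its adjusted p under 0.05 under every other scaling, filter, tool and set of libraries tried. It was 0.90 to 1.17 when 1 library was left out and 0.97 with the replicate block. The sum of all Rpl30 copies differed by 0.14 and did not pass. Rpl30-ps10 took 9.44% of that sum in Control and 17.0% in TGF-β1/G-MDSC sup. The sum therefore cannot show whether the rise of Rpl30-ps10 was lost. The fold of Rpl30-ps10 in this comparison was 1.998, so the rule of a fold above 2 did not call it. Rpl19-ps1 also lost its call with the compared groups alone (adjusted p = 0.0541 in edgeR), and Rpl7-ps9 with filterByExpr (adjusted p = 0.0589), without a filter (0.0818), with the compared groups alone (0.0895) and in the block (0.0755), all in edgeR, and with limma at either pseudocount (0.0924 and 0.0928). Deviations from the group means correlated at -0.0096 on average (from -0.12 to 0.08) for the 18 library pairs that share a replicate number. For the 36 that do not, the average was 0.0048. No pairing by number was seen, but such averages cannot exclude it, and the labels do not say whether libraries were paired.

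The precision for a single member rests on 3 libraries a group, with a median variation of 19.1% over the members. Reads shared between near-identical copies make the row of a single copy uncertain, and the table does not show how they were split.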
